A study of Mus musculus with 16 samples.

Results

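The 10 genes studied here mark maternal messenger RNAs for destruction and carry it out, and they were followed in 2-cell mouse embryos: Btg4, Cnot6l, Cnot7, Cnot1, Pan2, Zfp36l2, Ythdf2, Zcchc11 (now named Tut4), Zcchc6 (now named Tut7) and Dcp1a. They were chosen by name as known factors of deadenylation, uridylation and decapping, and all 10 were found among the 49585 gene identifiers measured. Polyadenylated RNA was sequenced with Smart-seq2 from 16 libraries, and every level below is therefore that of messenger RNA captured by its poly(A) tail. All embryos had DBA fathers and mothers that were C57BL/6J × CBA/H F1 hybrids, with culture in KSOM medium. Of the libraries 4 came from non-injected embryos, 6 from zygotes that received double-stranded RNA (dsRNA) for LacZ, which is bacterial (the LacZ control), and 6 from zygotes that received dsRNA for Suv39h2 (the knockdown). Suv39h2 encodes a histone H3 lysine 9 methyltransferase. According to the design text each library is a pool of 5 embryos, whereas the extraction protocol speaks of a single embryo, so the embryos behind each library are uncertain. The treatment protocol also names Suv39h1 messenger RNA, which no group's own label mentions.

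The fully grown oocyte is transcriptionally silent, and meiosis, fertilization and the first divisions run on stored messenger RNA. Those stores are dismantled in steps: deadenylases shorten the poly(A) tail, terminal uridylyltransferases tag shortened tails, decapping enzymes expose the 5′ end, and exonucleases digest the rest. BTG4 links translated messenger RNA to the CCR4-NOT deadenylase, and the embryo's own new transcripts take over at the 2-cell stage.

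For single genes, the fold change, its standard error and the adjusted p were taken from the authors' deposited table of each pair of groups, where DESeq2 was run over all genes. A gene is said to have risen or fallen only where that adjusted p lies under 0.05. Only means and differences were deposited, with 0 columns of single libraries, so the spread between libraries, the depth and any overlap of the groups are unknown for every gene. The labels do not say whether replicate libraries came from separate matings or collections, so the p-values measure the spread between these libraries, which may be technical. Errors are written as ± standard error. The targeted Suv39h2 had a log2 fold change of knockdown over LacZ control of -1.95 ± 0.28 per the authors' deposited table (adjusted p = 4.72e-08). All 9 fixed markers of the 2-cell stage, among them Zscan4c and Zfp352, were present, with mean normalized counts of 114.4 to 2987 per the authors' deposited table. Of 7 sperm markers none reached a mean count of 10 and 1 was listed at 0. Of 12 cumulus and granulosa markers 4 reached 10 (Nr5a2, Amhr2, Tnfaip6 and Cyp19a1, up to 428.0 for Nr5a2, which embryos also express), and Inhba and Lum were listed at 0. The 4 markers of this list with an adjusted p in knockdown over LacZ control had a median mean count of 221.7. Nr5a2 was therefore not alone in standing well above 10.

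Many maternal messages are stored with short tails and are activated through their 3′ ends, where the cytoplasmic polyadenylation element recruits CPEB proteins. The last 150 bases of the annotated 3′ UTR were searched in the sense direction, in 1 transcript model of GENCODE vM21 per gene. The letters TTTTAT of that element stood in the window of 6 of the 10 clearance factors (Btg4, Cnot7, Cnot1, Pan2, Ythdf2 and Dcp1a) and in 18.4% of the 18308 genes with such a window. Cnot7 and Pan2 held 3 copies each, of which 2 of Cnot7 overlap, Btg4 and Dcp1a held 2, and Cnot1 and Ythdf2 held 1. Copies from the 3 genes that were called in any comparison, and the last 2 of Cnot7, are shown 5′ to 3′ with the element in capitals.
Btg4, first copy: gtaaccagtctaTTTTATaaatctgttaaa
Btg4, second copy: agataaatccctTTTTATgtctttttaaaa
Cnot7, second copy: cttactgttttaTTTTATaaacatatttat
Cnot7, last copy: tcttaaggtacaTTTTATatcaataaaaat
Cnot1: aagatgtattgaTTTTATatatgtgagtac
Dcp1a, first copy: gtggtgtggaTTTTATaccatctgtgta
Dcp1a, second copy: tttcatcctaaaTTTTATatgtttgcaaat
On GRCm38 the Btg4 copies lie on the plus strand at chr9:51119748-51119777 and chr9:51119797-51119826, in its 3′ UTR. Those of Cnot7 lie on the minus strand at chr8:40493126-40493155 and chr8:40493038-40493067, and that of Cnot1 on the same strand at chr8:95719504-95719533. The Dcp1a copies lie on the plus strand at chr14:30526914-30526941 and chr14:30526985-30527014.

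Apart from the polyadenylation signal, the other letters were rarer in these windows. The second form of the element, TTTTAAT, stood in Dcp1a alone of the 10 (6.72% of all genes), the AU-rich letters TATTTAT in Cnot7 alone (6.19%), and the Pumilio letters TGTANATA in 0 of the 10 (5.98%). The polyadenylation signal AATAAA stood in 7 of the 10 and in 66.2% of all genes. Btg4 and Cnot1 held neither AATAAA nor its form ATTAAA, so the annotated end of these models need not be the end used in embryos. TTTTAT and TTTTAAT share their first 5 letters but cannot match at the same start, whereas TTTTAT can overlap TATTTAT. A match is a description of the letters, and no use of these sites was measured.

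The clearance factors covered a wide range of levels. Per kb of exon union, the mean normalized count ran from 8.69 (Zfp36l2) to 6219 (Btg4) over all libraries, a 716-fold range. The median of the 32861 genes with a count and a length was 3.38 per kb. Btg4, the oocyte adaptor, led with a percentile of 99.9 per kb, which is 4.38 times the level of the next, Cnot7 (1419 per kb), a catalytic subunit of CCR4-NOT. Ythdf2, an m6A reader, stood at 597.4 per kb, and Cnot6l, another catalytic subunit, at 161.7. These 4 were among the top 10% of genes per kb.

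The remaining members were lower. Dcp1a, an activator of decapping, had 111.9 counts per kb, Pan2, the catalytic subunit of the PAN2-PAN3 deadenylase, had 75.8, and Cnot1, the scaffold on which CCR4-NOT assembles, had 66.2. The uridylyltransferases Zcchc6 and Zcchc11 had 18.6 and 10.2 per kb, and Zfp36l2, a zinc finger protein that brings CCR4-NOT to AU-rich elements, had 8.69. With the length of the longest coding transcript in place of the exon union the order of the 10 was the same. No error can be given for these means, so whether neighbours in this order, such as Pan2 and Cnot1, differ beyond their spread is unknown. Zfp36l2 and Zcchc11 were the 2 members with a mean count under 100 (30.7 and 88.7), where shrinkage pulls fold changes towards 0.

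**Figure D1:**
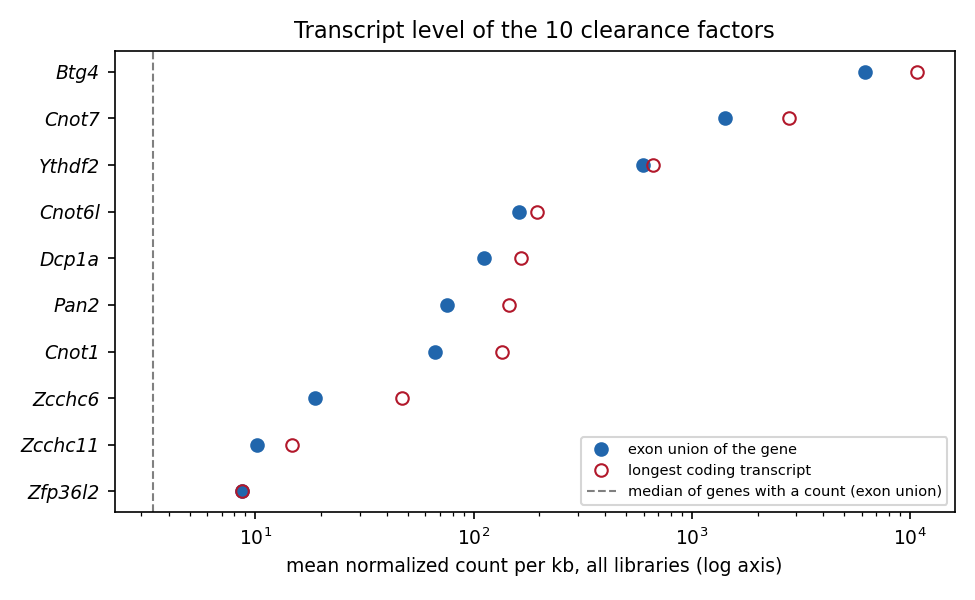
Mean normalized count per kb over all libraries (log axis) of the 10 clearance factors, ordered by level; filled points divide by the exon union, open points by the longest coding transcript, and the dashed line is the median of genes with a count. Btg4 (6219 per kb) and Cnot7 (1419) stand above the others and Zfp36l2 (8.69) is the lowest.

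Between knockdown and LacZ control, both injected, 1 of the 10 clearance factors was called. Dcp1a rose 1.79-fold in the knockdown, and Btg4, every CCR4-NOT member, Pan2, Ythdf2, Zfp36l2 and both uridylyltransferases were not called. Of all 15572 genes with an adjusted p, 0.899% were called in this comparison, 0.366% higher and 0.533% lower (1.2% of those with a mean count of 100 or more were called), and the median log2 fold change was -0.03 over the 10, 0.02 over all genes and -0.08 over genes with a mean count of 100 or more. Centred on the median of those well-measured genes, the median of the 10 turned to 0.04, and centred on genes of like mean count to 0.03, so its sign depends on the scaling. Of the 10 values 5 were above 0 and 5 below. In these bulk libraries fewer cells with a transcript, less RNA per cell and shorter tails cannot be told apart.

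Between knockdown and non-injected embryos 3 of the 10 were called: Btg4 and Dcp1a rose and Cnot1 fell. The background in this comparison was 15.2% of 14948 genes, 7.41% higher and 7.76% lower, and 22.5% of those with a mean count of 100 or more. All 3 called members are among the 8 with such a mean count. Whether their share differs from the background was not tested. The median log2 fold change was 0.11 over the 10 and 0.05 over all genes. Between LacZ control and non-injected embryos DESeq2 called 0 of the 10, against 0.792% of 29288 genes and 0.919% of those with a mean count of 100 or more. At an unadjusted p under 0.05 there was 1 member higher, Btg4, and 1 lower, Cnot1. The comparisons share groups, and the deposited difference of knockdown over non-injected is the sum of the other comparisons.

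**Figure D2:**
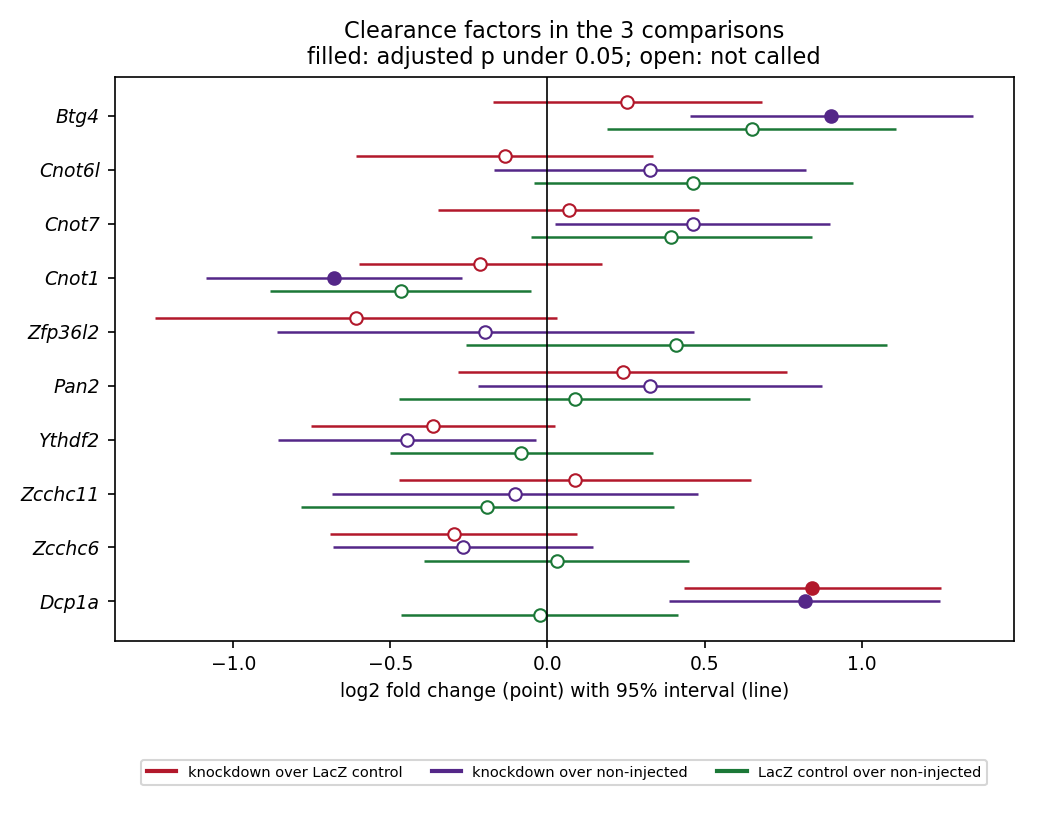
Deposited log2 fold change (points) with its 95% interval (lines, 1.96 standard errors either side) of each clearance factor in the 3 comparisons; filled points have an adjusted p under 0.05. Dcp1a is called in both comparisons with the knockdown, and Btg4 and Cnot1 in knockdown over non-injected alone.

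Btg4 (ENSMUSG00000032056.10, chromosome 9 of GRCm38, 51060901 to 51119875, plus strand, protein-coding) is the adaptor that couples messages to deadenylation as the oocyte matures, and is itself a maternal message. Knockdown exceeded non-injected embryos by 0.90 ± 0.23 on the log2 scale per the authors' deposited table (1.87-fold, interval 1.37 to 2.56, adjusted p = 0.00271). The authors' deposited table put LacZ control over non-injected at 0.65 ± 0.23 (1.57-fold, adjusted p = 0.262) and knockdown over LacZ control at 0.25 ± 0.22 (1.19-fold, adjusted p = 0.621). Ordered by these differences, Btg4 was lowest in non-injected embryos and highest in the knockdown, with LacZ control between them and not called against either. The difference between the injected groups had an interval of 0.886- to 1.61-fold. No exon of another annotated gene overlaps those of Btg4.

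Cnot7 and Cnot6l encode catalytic subunits, of the CAF1 and CCR4 types, that BTG4 brings to messages. In the authors' deposited table Cnot7 stood at 0.46 ± 0.22 for knockdown over non-injected (adjusted p = 0.141), 0.39 ± 0.23 for LacZ control over non-injected (adjusted p = 0.780) and 0.07 ± 0.21 for knockdown over LacZ control (adjusted p = 0.916). Cnot6l stood at 0.33 ± 0.25, 0.46 ± 0.26 and -0.14 ± 0.24 per the authors' deposited table in the same order, with adjusted p of 0.395, 0.755 and 0.852. Neither was called, although both had positive values against non-injected embryos. The sign of Cnot6l between the injected groups turned (0.02) when fold changes were centred on genes of like mean count. Exons of Cnot7 (chromosome 8, 40492540 to 40515847) overlap those of Zdhhc2 on the opposite strand by 247 bases, and Smart-seq2 does not record the strand.

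Cnot1 (ENSMUSG00000036550.16, chromosome 8, 95719451 to 95807464, minus strand, protein-coding) went the other way from Btg4. From non-injected to knockdown its log2 level fell by 0.68 ± 0.21 per the authors' deposited table (1.60-fold lower, adjusted p = 0.0142). Its values per the authors' deposited table were -0.47 ± 0.21 for LacZ control over non-injected (adjusted p = 0.536) and -0.21 ± 0.20 for knockdown over LacZ control (adjusted p = 0.654). LacZ control was called against neither of the others. Centred on the genes nearest in mean count, the difference of knockdown over non-injected was -0.45 and that of knockdown over LacZ control was -0.010, so no order of the injected groups can be read for Cnot1. An antisense gene overlaps 132 bases of its exons. The difference between Btg4 and Cnot1 was not tested.

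Dcp1a (ENSMUSG00000021962.8, chromosome 14, 30479535 to 30527063, plus strand, protein-coding) encodes a partner of the decapping enzyme DCP2. It rose by 0.84 ± 0.21 in knockdown over LacZ control per the authors' deposited table (1.79-fold, interval 1.35 to 2.38, adjusted p = 0.0184). Against non-injected embryos it rose by 0.82 ± 0.22 per the authors' deposited table (1.76-fold, interval 1.31 to 2.38, adjusted p = 0.00484). The injected and non-injected controls differed by -0.02 ± 0.22 for it per the authors' deposited table (adjusted p = 0.998), with an interval of 0.724- to 1.33-fold. Of the 10, Dcp1a was the member called between the injected groups, where Btg4 and Cnot1 were not. No exon of another annotated gene overlaps its own.

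Pan2, whose product trims long tails before CCR4-NOT acts, was not called. Its log2 fold changes per the authors' deposited table were 0.24 ± 0.27 between the injected groups, then 0.33 ± 0.28 (knockdown over non-injected) and finally 0.09 ± 0.29 (LacZ control over non-injected; adjusted p = 0.723, 0.461 and 0.998). The 2 RNA-binding recruiters were not called either. Ythdf2, which brings messages with methylated adenosine to CCR4-NOT and is needed for maternal clearance, stood at -0.36 ± 0.20, -0.45 ± 0.21 and -0.08 ± 0.21 per the authors' deposited table in the same order (adjusted p = 0.393, 0.141 and 0.998). Zfp36l2 stood at -0.61 ± 0.33, -0.20 ± 0.34 and 0.41 ± 0.34 per the authors' deposited table (adjusted p = 0.420, 0.823 and 0.998). With 30.7 counts on average, its interval between the injected groups reached from 0.421- to 1.02-fold, wide enough to hold a difference of the size of Dcp1a's in the opposite direction. Its exons overlap an antisense gene by 105 bases.

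The uridylyltransferases Zcchc11 and Zcchc6 add uridines to messages with short tails. Zcchc11 stood at 0.09 ± 0.29, -0.10 ± 0.30 and -0.19 ± 0.30 per the authors' deposited table, again in that order (adjusted p = 0.936, 0.831 and 0.998). Zcchc6 stood at -0.30 ± 0.20, -0.27 ± 0.21 and 0.03 ± 0.22 per the authors' deposited table (adjusted p = 0.498, 0.409 and 0.998). Neither was called in any comparison. Exons of Zcchc6 overlap the antisense gene Etohd2 by 1299 bases and Gm49354 on its own strand by 228, so its counts are uncertain.

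**Figure D3:**
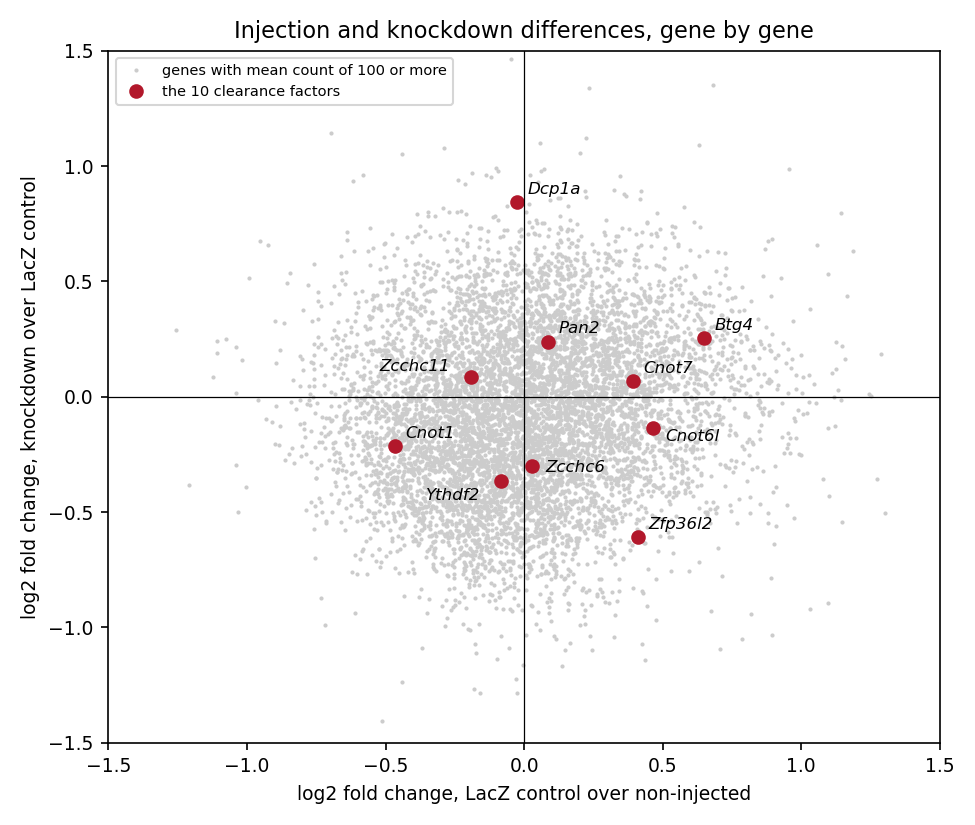
Log2 fold change of LacZ control over non-injected (x axis) against knockdown over LacZ control (y axis) for genes with a mean count of 100 or more (grey, 1 lies outside the axes) and for the 10 clearance factors (red). Both axes contain the LacZ control; Btg4 lies to the right (0.65, 0.25), Cnot1 to the left (-0.47, -0.21) and Dcp1a at the top (-0.02, 0.84).

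The pattern of Btg4 over the 3 groups was not its own alone. Of 7721 other genes with a mean count of 100 or more, 65 lay within 0.1 of it in the plane of the 2 log2 fold changes, LacZ control over non-injected and knockdown over LacZ control. The nearest were Rhd, Gm13103, Polb, Ncstn and Syt16, at distances of 0.0244, 0.0265, 0.0271, 0.0285 and 0.0301. None of the other clearance factors with a mean count of 100 or more lay within 0.1, where 65 of the 7721 genes did. So small a part of all genes makes their absence uninformative. The distance of 0.1 is also below the standard errors of Btg4 on both axes (0.23 and 0.22), so which genes lie within it is uncertain.

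The other lists hold 78 genes tied to poly(A) tails, AU-rich elements, m6A or message decay. In knockdown over LacZ control 2 of them were called lower and 0 higher (75 tested, 0.533% of all genes lower). In knockdown over non-injected 3 rose and 8 fell of 75 tested, or 14.7%, against 15.2% of all genes. In LacZ control over non-injected DESeq2 called 0 of 77, with 2 higher and 3 lower at an unadjusted p under 0.05. Their median log2 fold changes were -0.12, 0.03 and 0.07, beside 0.02, 0.05 and 0.00 over all genes tested.

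The 8 other CCR4-NOT subunits held 0 calls by DESeq2 in each comparison, with 1 lower at an unadjusted p under 0.05 in knockdown over non-injected and 0 in the others. They ranged from -0.54 to 0.43 in knockdown over non-injected per the authors' deposited table, so Cnot1 was the 1 called subunit of the complex. Of the 7 other deadenylases 1 was called in knockdown over non-injected (14.3%, beside 15.2% of all genes and 22.5% of those with a mean count of 100 or more). This was Pnldc1, a trimming enzyme related to PARN, which fell by 1.01 ± 0.21 per the authors' deposited table (adjusted p = 0.000261). Pan3, the partner of PAN2, stood at 0.49 ± 0.22 per the authors' deposited table in that comparison (adjusted p = 0.102). The 5 other nucleotidyltransferases held 0 calls, and also 0 at an unadjusted p under 0.05, in each comparison. Of all genes, 0.899% were called in knockdown over LacZ control, 15.2% in knockdown over non-injected and 0.792% in LacZ control over non-injected. At such shares, 0 calls in lists this short say little about the complexes.

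Among genes for proteins that hold the poly(A) tail or link it to the deadenylase, calls went in both directions. Pabpc1, the main cytoplasmic poly(A)-binding protein, fell by 0.76 ± 0.21 in knockdown over LacZ control and by 0.85 ± 0.22 in knockdown over non-injected per the authors' deposited table (adjusted p = 0.0364 and 0.00280). Pabpc1l, its oocyte and early embryo form, rose by 1.40 ± 0.34 in knockdown over non-injected per the authors' deposited table (adjusted p = 0.00214). Between the injected groups Pabpc1l stood at 0.82 ± 0.33 per the authors' deposited table (adjusted p = 0.218). Btg2, a relative of Btg4 in somatic cells, rose by 0.98 ± 0.29 in knockdown over non-injected and stood at 0.96 ± 0.28 in knockdown over LacZ control per the authors' deposited table (adjusted p = 0.0167 and 0.0629). Pabpn1l, the maternal nuclear-type poly(A)-binding protein, was not called (0.39 ± 0.33 over non-injected per the authors' deposited table, adjusted p = 0.470). In all, 2 of these 10 rose and 1 fell in knockdown over non-injected, where 15.2% of all genes and 22.5% of those with a mean count of 100 or more were called.

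Few other factors tied to AU-rich elements and to m6A were called, and those that were called fell. In knockdown over non-injected 9 of the 14 tested were above 0 (median 0.14). In knockdown over LacZ control 5 were (median -0.09). Hnrnpd, an AU-rich element binding protein, fell by 1.14 ± 0.29 in knockdown over LacZ control per the authors' deposited table (adjusted p = 0.0268). It was not called in knockdown over non-injected (-0.71 ± 0.30, adjusted p = 0.109) per the authors' deposited table. Its value for LacZ control over non-injected was 0.44 ± 0.31 (adjusted p = 0.942). Ythdf1 and Ythdc1, a cytoplasmic and a nuclear m6A reader, fell by 0.80 ± 0.26 and 0.93 ± 0.31 in knockdown over non-injected per the authors' deposited table (adjusted p = 0.0209 and 0.0335). The other genes of that list, 13 of 14 tested between the injected groups and 12 of 14 against non-injected embryos, were not called. Between the injected groups 7.14% (1 gene) were called, beside 0.899% of all genes. Against non-injected embryos 14.3% were called, beside 15.2% of all genes and 22.5% of those with a mean count of 100 or more. That last share of the list is near the share of all genes. Exons of Hnrnpd overlap an antisense gene, and those of Ythdc1 a noncoding gene on its own strand.

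The decapping group outside Dcp1a had 2 calls among 16 genes tested in knockdown over non-injected, 1 in each direction. These were 12.5% of the group, beside 15.2% of all genes and 22.5% of those with a mean count of 100 or more. The group also holds genes with lower mean counts, such as Dcp1b (10.1) and Lsm5 (19.5). Lsm1, of the ring that binds shortened tails and promotes decapping, rose by 0.67 ± 0.21 per the authors' deposited table (adjusted p = 0.0165). Edc3, an enhancer of decapping, fell by 0.93 ± 0.24 per the authors' deposited table (adjusted p = 0.00329), and shares 1284 bases of exon with Clk3 on the opposite strand. For LacZ control over non-injected Lsm1 stood at 0.48 ± 0.22 and Edc3 at -0.79 ± 0.25 per the authors' deposited table. Between the injected groups they stood at 0.19 ± 0.20 and -0.14 ± 0.23, and neither gene was called in these comparisons. Dcp2, the decapping enzyme itself, stood at 0.12 ± 0.17 in knockdown over LacZ control and 0.24 ± 0.18 in knockdown over non-injected per the authors' deposited table (adjusted p = 0.816 and 0.408). No gene of this group other than Dcp1a was called between the injected groups by DESeq2, with 1 lower at an unadjusted p under 0.05. Of all genes 0.899% were called there.

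Genes of 3′ decay were called lower where they were called. Of 15 tested genes of the exosome, its SKI helper complex and the Dis3 family, 3 fell in knockdown over non-injected and 0 rose, beside 7.76% of all genes lower. The called share of the list was 20%. Among genes with a mean count of 100 or more, 22.5% were called in either direction. Exosc5 fell by 0.86 ± 0.27, Exosc7 by 0.81 ± 0.26 and Dis3l by 0.68 ± 0.23 per the authors' deposited table (adjusted p = 0.0204, 0.0240 and 0.0236). The first of these, Exosc5, shares 355 bases of exon with Tmem91 on the opposite strand. Their list had a median of -0.32, and DESeq2 called 0 of it between the injected groups (1 lower at an unadjusted p under 0.05).

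**Figure D4:**
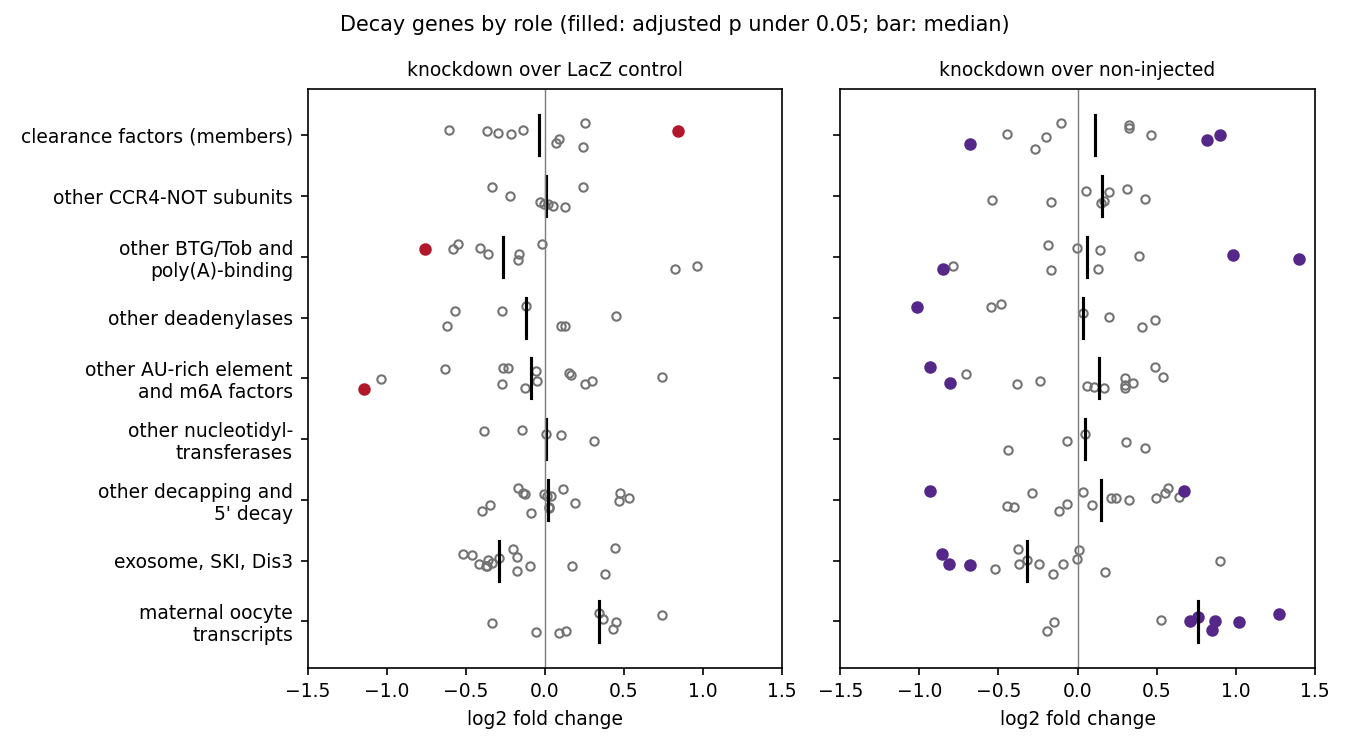
Log2 fold change of each gene with an adjusted p (points; filled where that is under 0.05) by role, for knockdown over LacZ control (left) and knockdown over non-injected (right); bars are medians and vertical scatter has no meaning. On the right the exosome group centres at -0.32 and the maternal transcripts at 0.76.

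Calls among oocyte transcripts known to be cleared after fertilization were all higher. Of 9 such transcripts tested, 6 rose and 0 fell in knockdown over non-injected, beside 7.41% of all genes higher and 22.5% of genes with a mean count of 100 or more called in either direction. Their median log2 fold change was 0.76, with 7 values above 0 and 2 below. The 3 not called were Zp1, Zp3 and Mos, with an adjusted p of 0.147, 0.669 and 0.788 by DESeq2. They stood at 0.53 ± 0.25, -0.15 ± 0.19 and -0.19 ± 0.38 per the authors' deposited table. Nobox, an oocyte transcription factor, rose by 1.27 ± 0.28, Plat, a tissue plasminogen activator, by 1.02 ± 0.29, and Zp2, a zona pellucida protein, by 0.85 ± 0.19 per the authors' deposited table (adjusted p = 0.000396, 0.00728 and 0.000840). The oocyte growth factors Bmp15 and Gdf9 rose by 0.87 ± 0.24 and 0.76 ± 0.23, and Oosp1, an oocyte-secreted protein, by 0.71 ± 0.23 per the authors' deposited table (adjusted p = 0.00752, 0.0113 and 0.0191). DESeq2 called 0 of 10 of these transcripts in LacZ control over non-injected, yet 9 of the 10 values were above 0, 4 were higher at an unadjusted p under 0.05, and the median was 0.46. Between the injected groups DESeq2 called 0 of the 9, with 2 higher at an unadjusted p under 0.05, and a median of 0.34. Removal of these messages was not measured.

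Calls among markers of the 2-cell stage were likewise all higher. In knockdown over non-injected 5 of 9 rose and 0 fell, beside 7.41% of all genes higher. Of these 9 values 8 were above 0 and 1 was below. Of genes with a mean count of 100 or more, 22.5% were called there in either direction. Zscan4f, Tcstv1, Tdpoz4, Zscan4c and Tcstv3 rose by 1.21 ± 0.30, 1.03 ± 0.26, 1.02 ± 0.24, 0.95 ± 0.32 and 0.83 ± 0.25 per the authors' deposited table (adjusted p = 0.00204, 0.00201, 0.00136, 0.0340 and 0.0109). Tcstv genes also rose in LacZ control over non-injected, 2 of the 9 markers, beside 0.792% of all genes called: Tcstv1 by 1.05 ± 0.26 and Tcstv3 by 0.89 ± 0.25 per the authors' deposited table (adjusted p = 0.00964 and 0.0445). All 9 values were above 0 there, with a median of 0.69. Between the injected groups DESeq2 called 0 of the 9, with 1 higher at an unadjusted p under 0.05, and a median of -0.03. The Zscan4, Tcstv and Tdpoz families hold near-identical genes, so counts of their single members are uncertain. Btg4 is a maternal message, and the part of embryo stage in its difference was not tested.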

How the data were processed

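The gene tables of the 3 pairwise comparisons were read as deposited. Per the submitters' processing notes, the tools were STAR 2.5.2b, SAMtools, HTSeq 0.9.1 and DESeq2 1.18.1 and the build was GRCm38.p5. The use of RUVSeq factors and of shrinkage is known from table names alone, and no source used here gives the annotation release. The deposited columns, per the file headers, are a mean normalized count (a signal over all libraries), the log2 fold change and its standard error, the Wald statistic (a score), and p-values before and after adjustment. Adjusted p-values cover all genes that passed the authors' filter. Shrinkage makes fold changes of low genes conservative. The Wald statistics and p-values do not derive from the listed fold changes, and may rest on unshrunken estimates. For Nudt16 in knockdown over LacZ control, per the authors' deposited table, the log2 fold change was 0.28 and the Wald statistic -0.17. Intervals built from the listed values therefore need not match the p-values.

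From these were computed folds, 95% intervals (1.96 standard errors), levels per kb, counts of calls and medians, with pandas 2.3.3 and numpy 2.4.6. Symbols, exons and 3′ ends came from GENCODE vM21 on GRCm38, with 49326 of 49585 identifiers matched. The Benjamini-Hochberg and running median code was tested on simulated data. All 10 members are named, then every called gene of the other lists, by rule up to the 4 with the smallest adjusted p a comparison, and the 5 genes nearest to Btg4. Gdf9, Oosp1 and Zscan4c fall outside that rule and were named after their values were seen, as were the uncalled Zp1, Zp3 and Mos. The members and lists were chosen with earlier results of these data known. The 3′ signal AATAAA and ATTAAA was added after the sequences were seen. The repeat tables were not used.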

Additional observations from a re-analysis of the deposited data

How the results depend on the processing

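The member calls were recounted with Benjamini-Hochberg adjustment over every p-value, over genes with a mean count of 100 or more, and at adjusted p under 0.10 and 0.01. The count for knockdown over LacZ control (1) became 0 at 0.01, where Dcp1a lost its call. That for knockdown over non-injected lost Cnot1 at 0.01, leaving 2. The other pathway genes called in knockdown over LacZ control (2) numbered 1 over every p-value, 4 over genes with a mean count of 100 or more, 4 at 0.10 and 0 at 0.01. In knockdown over non-injected the 11 became 4 at 0.01. No called member changed sign under either centring, and of 30 member values 1 changed sign, that of Cnot6l in knockdown over LacZ control. The median of the 10 in that comparison (-0.03) turned to 0.04 and 0.03 under the centrings. No paired analysis was possible because the deposited tables hold no values of single libraries, and for the same reason no replicate could be left out. The depth of the libraries is unknown.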

Other observations

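The letters TTTTAT in the last 150 bases, held by 6 of the 10 clearance factors, were looked up in all genes with a mean count of 100 or more, 1403 with the letters and 5184 without them. In knockdown over non-injected, 9.19% of the genes with the letters rose and 11.5% fell (median log2 fold change -0.06), and of those without them 8.64% rose and 14.1% fell (median -0.09). In knockdown over LacZ control, 3 genes with the letters rose and 21 fell (0.214% and 1.5%, median -0.08), and 12 without them rose and 44 fell (0.231% and 0.849%, median -0.06). In LacZ control over non-injected, 13 genes with the letters rose and 1 fell (0.927% and 0.0713%, median 0.03), and 31 without them rose and 9 fell (0.598% and 0.174%, median -0.02). These shares are descriptions, and their differences were not tested.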
